A study of Mus musculus with 13 samples.

Results

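NIH3T3 cells, an established mouse embryonic fibroblast line labelled WT, were exposed to thapsigargin (Tg) for 2 h and compared with untreated NIH3T3 cells. These were 2 of the 13 libraries of the series. Genes were kept where the mean TPM over the 3 NIH3T3 libraries (control, Tg 2 h and Tg 7 h) was at least 2, which left 10117 of 22406 gene symbols. Every library was made by ribosome footprint profiling, in which the mRNA fragments shielded by ribosomes are sequenced, and the authors counted them over coding sequences. NIH3T3 cells received 200 nM Tg for 2 h or 7 h, and the MEFs (mouse embryonic fibroblasts) used for comparison, either PERK WT or PERK -/-, received 1 µM. The cells were trypsinized, pelleted and flash frozen, and cycloheximide, which holds ribosomes in place, was left out throughout. Each condition was 1 library, so no difference has a replicate check, and no test between conditions was made.

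Tg blocks SERCA, the pump that fills the endoplasmic reticulum (ER) with calcium, and a depleted ER folds proteins poorly. PERK, one of the sensors of this ER stress, phosphorylates eIF2α, which lowers translation of most mRNAs while a few, such as Atf4 mRNA, escape through short upstream reading frames; this branch is the integrated stress response (ISR). IRE1 with XBP1 and ATF6 form the other branches of the unfolded protein response (UPR), and raise genes for ER chaperones and for ER-associated degradation.

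TPM is a share of the footprints of a library, per length of coding sequence and scaled to the same sum in every library, so a gene can gain share while its absolute protein synthesis falls. Total translation was not measured by these files, and footprints alone cannot tell a change in mRNA level from a change in translation per mRNA. The totals were 11121006 expected counts in the control and 2569965 at 2 h, a ratio of 4.33, and the median gene had 369 counts in the control and 85 at 2 h. Values under 4 TPM were raised to 4 before a log2 change was taken, and a gene was called when it changed at least 2-fold. Intervals are 95% exact intervals of the ratio of counts per library total. They cover counting error only, and the count scale lies 0.12 (log2) above the TPM scale, so an interval can lie above its TPM value. Of the 12 fibroblast markers checked, 10 were at 2 TPM or more in the control, and Fap, at 0, and Col3a1, at 0.64 TPM, were not; none of 7 immune markers was, 1 of 6 endothelial markers was, and the epithelial markers summed to 31.2 TPM in the control and 35.7 TPM at 2 h.

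At 2 h, 583 genes were at least 2-fold higher and 380 at least 2-fold lower than in the control, which is 5.76% and 3.76% of the expressed genes. Raised genes outnumbered lowered genes at 2-fold under each scaling tried, but by how much depended on the scale. They made up 60.5% of all calls on TPM, 56.3% with the trend along GC content removed, 74.7% when expected counts were only divided by the library total (CPM), 71.8% when the control was thinned to the depth of the 2 h library, and 77.1% when the changes were centred on their median, a setting chosen after seeing the data. At 1.5-fold the balance turned, with 1210 raised and 1840 lowered genes. The median log2 change was -0.13, with quartiles of -0.47 and 0.19. The counting interval lay above 0 for 574 of the raised genes and below 0 for 362 of the lowered genes. It lay wholly beyond 2-fold for 359 raised genes but for 20 lowered genes. The lowered genes rested on few footprints at 2 h, with a median count of 45 against 437.5 in the control. The plot of every expressed gene shows this spread.

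**Figure D1:**
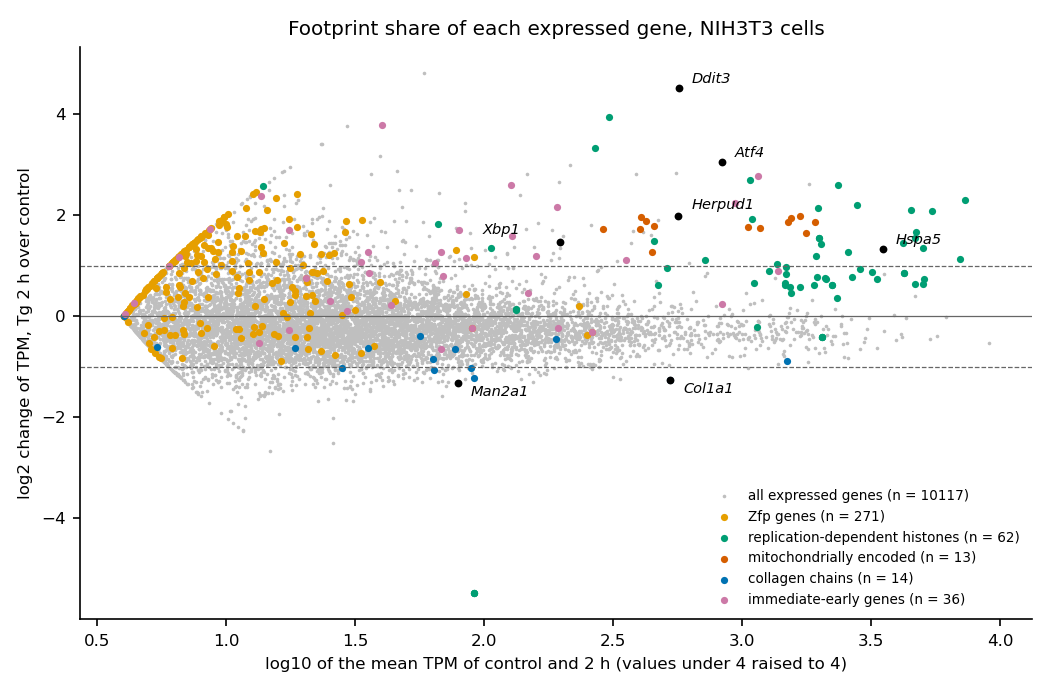
Log2 change of TPM (Tg 2 h over control) against the log10 mean TPM of both libraries, 1 point for each of the 10117 expressed genes, with TPM under 4 raised to 4 and dashed lines at 2-fold. Ddit3 and Atf4 stand high among abundant genes, the 13 mitochondrially encoded genes form a tight group above the upper line, and most collagen chains lie near or under the lower one.

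Genes next to the thresholds show how narrow the calls were. Inafm1 entered with a mean of 2.00 TPM. Zswim3, at 5.61 TPM in the control and 11.24 at 2 h, was just inside the 2-fold call and Zkscan3, at 7.5 and 14.99 TPM, just outside. Among the lowered genes, Pacs1 (8.64 to 4.32 TPM) was inside and Purb (52.62 to 26.33 TPM) outside.

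Coding sequence is shown for 2 genes that lost and 3 genes that gained footprint share, because the presence of a hydrophobic stretch near the N terminus differed between lowered and raised genes (values given with the feature classes). Such a stretch can be the core of a signal peptide or signal anchor that sends a nascent protein to the ER, but hydropathy alone does not identify one. The first 90 bases of each coding sequence follow, 5′ to 3′, with the 8 codons that encode the most hydrophobic window of the first 30 residues in capitals. They were read from GENCODE M21 transcripts (GRCm38). The genomic spans, which contain an intron for Ifrd1, are chr17:64601736-64601825 (plus strand) for Man2a1, chr5:24588038-24588127 (plus) for Chpf2, chr10:127295341-127295430 (plus) for Ddit3, chr15:80256299-80256388 (plus) for Atf4 and chr12:40217481-40222956 (minus) for Ifrd1. The mean hydropathy of the window in capitals, on the Kyte-Doolittle scale, was 3.41 in Man2a1 and 2.74 in Chpf2, and 1.01 in Ddit3, 1.35 in Atf4 and 0.85 in Ifrd1. The authors clipped 30 bases from each end of a coding sequence before counting, so footprints over the first part of each line were not counted.
Man2a1: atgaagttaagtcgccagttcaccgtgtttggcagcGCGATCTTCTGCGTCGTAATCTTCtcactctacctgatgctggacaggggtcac
Chpf2: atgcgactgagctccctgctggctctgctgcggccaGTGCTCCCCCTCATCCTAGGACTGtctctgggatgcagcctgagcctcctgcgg
Ddit3: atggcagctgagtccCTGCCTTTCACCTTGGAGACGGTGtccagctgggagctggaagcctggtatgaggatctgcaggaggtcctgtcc
Atf4: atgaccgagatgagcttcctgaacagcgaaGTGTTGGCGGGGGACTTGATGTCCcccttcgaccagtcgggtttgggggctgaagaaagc
Ifrd1: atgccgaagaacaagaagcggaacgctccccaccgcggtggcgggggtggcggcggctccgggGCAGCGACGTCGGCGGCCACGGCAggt

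The ISR transcription factors and effectors took 0.143% of all counts in untreated cells, 0.449% at 2 h and 0.326% at 7 h. Over all 28 listed genes the log2 change at 2 h was 1.65 (95% counting interval 1.61 to 1.68). Of the 25 expressed members, 7 rose at least 2-fold and 1 fell (5.76% and 3.76% of all expressed genes), and their median log2 change of 0.16 stood beside the -0.13 of all expressed genes. A few abundant members therefore carried the sum.

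Ddit3, which encodes the transcription factor CHOP, was at 47.2 TPM in untreated cells, 1086 TPM at 2 h and 383 TPM at 7 h. Its log2 change at 2 h was 4.53 (interval 4.46 to 4.83, from 284 and 1643 counts). This was the highest value of the list at 2 h, and the 7 h library was in between the other two. Atf4, the factor whose translation defines the ISR, was at 178, 1491 and 527 TPM, a log2 change of 3.06 at 2 h (3.11 to 3.26). Atf5, a related factor, was at 36.3, 257 and 216 TPM (2.82; 2.76 to 3.13). Ppp1r15a, which encodes GADD34, the stress-inducible subunit that directs a phosphatase to eIF2α, was at 11.0, 81.0 and 118 TPM, so that it alone of these 4 was higher at 7 h than at 2 h. Its log2 change at 2 h was 2.89 (2.79 to 3.22).

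The remaining raised members were Nupr1, a small stress-induced nuclear protein, Chac1, which degrades glutathione, and Trib3, a pseudokinase induced by ATF4 and CHOP. Nupr1 went from 218 to 666 TPM (log2 1.61; 1.52 to 1.94) and stood at 408 TPM at 7 h. Chac1 went from 101 to 303 TPM (1.59; 1.55 to 1.87) and stood at 317 TPM at 7 h. Trib3 was at 68.5 TPM in untreated cells, 140 at 2 h and 295 at 7 h, and its 2 h change of 1.03 lay at the edge of the call.

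Several other genes known as ATF4 or CHOP targets did not pass 2-fold at 2 h. Sesn2, which encodes the mTORC1 inhibitor sestrin 2, was at 30.03 TPM in untreated cells, 18.4 at 2 h and 47.5 at 7 h, a log2 change of -0.71 at 2 h (-0.94 to -0.25). Ddit4, another mTORC1 inhibitor, was at 309, 381 and 526 TPM (0.30). Cebpb, a CHOP partner, was at 182, 192 and 241 TPM (0.08; 0.00 to 0.31). Gdf15 and Fgf21, secreted stress hormones, had 15 and 8 counts at 2 h. Bbc3, which encodes the pro-apoptotic protein PUMA, was the lowered member, from 11.9 to 3.65 TPM, and its 6 counts at 2 h give a wide interval of -2.98 to -0.30. Among the eIF2α kinases, Eif2ak3, which encodes PERK itself, was at 10.8 TPM in untreated cells, 6.27 at 2 h and 26.8 at 7 h, with log2 values of -0.79 at 2 h and 1.31 at 7 h.

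**Figure D2:**
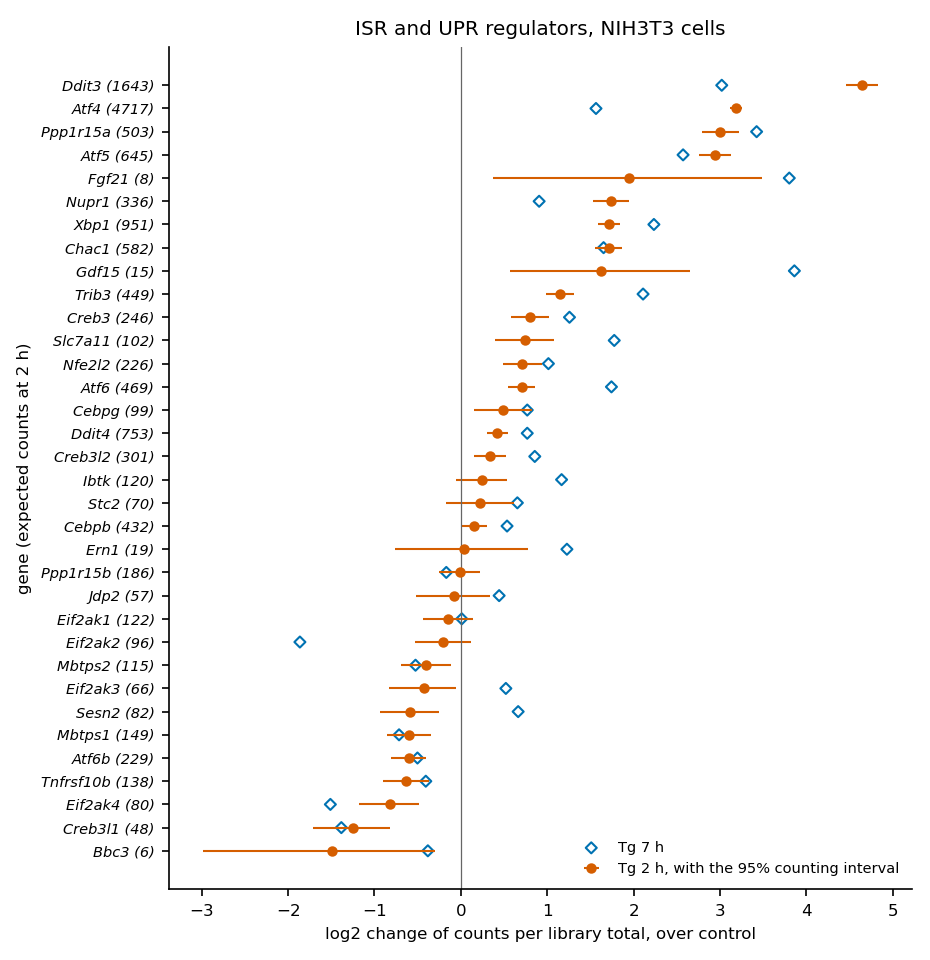
Log2 change of counts per library total over the control for the ISR and UPR regulators, at 2 h of Tg with the 95% counting interval (filled, bar) and at 7 h (open diamond), with the 2 h count in parentheses. Ddit3, Atf4 and Atf5 lie further right at 2 h than at 7 h, whereas Xbp1, Atf6 and Trib3 lie further right at 7 h.

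The UPR sensors and transcription factors other than PERK summed to a log2 change of 0.48 at 2 h (0.41 to 0.54) and 1.02 at 7 h. Of 9 expressed members, 1 rose at least 2-fold and 1 fell (11.1% each, beside 5.76% and 3.76% of all expressed genes). Xbp1, the factor whose mRNA is spliced by IRE1, was at 104 TPM in untreated cells, 290 at 2 h and 438 at 7 h, a log2 change of 1.48 at 2 h (1.59 to 1.84). Gene-level counts do not separate its spliced form. Atf6 was at 50.5, 76.1 and 171 TPM (0.59 at 2 h and 1.76 at 7 h). Creb3l1, a membrane-bound factor of the same family that is linked to collagen synthesis, fell from 25.6 to 9.89 TPM, a log2 change of -1.37 (-1.71 to -0.82), and was at 9.79 TPM at 7 h.

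ER chaperones and oxidoreductases were higher in sum but not in most members. They took 2.94% of the counts in untreated cells, 3.48% at 2 h and 6.33% at 7 h, a log2 change of 0.24 at 2 h (0.23 to 0.26) and 1.11 at 7 h. The median of the 36 expressed members was -0.10 at 2 h, so sum and median differed in sign, and the median was 0.02 on the CPM scale and 0.04 with the control thinned. Of these members, 2 rose at least 2-fold (5.56%) and 1 fell (2.78%), shares near the 5.76% and 3.76% of all expressed genes. Hspa5, which encodes BiP, the main lumenal Hsp70, was at 1985 TPM in untreated cells, 5008 at 2 h and 12210 at 7 h, a log2 change of 1.33 at 2 h (1.43 to 1.48) and 2.62 at 7 h. Dnajb9, a BiP co-chaperone, was at 44.6, 101 and 264 TPM (1.18; 1.04 to 1.56). Those were the raised members. Dnajc3 and Pdia4 were at 0.16 and -0.06 at 2 h and at 1.48 and 0.99 at 7 h. Fkbp9, a prolyl isomerase, was the lowered member (234 to 107 TPM, -1.12), and Serpinh1, the collagen chaperone HSP47, was at 2340 and 1253 TPM (-0.90).

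The ER stress response element, a CCAAT and a CCACG separated by 9 bases, is the classical site of ATF6 and NF-Y in promoters of ER chaperone genes. This pattern, CCAAT then 9 bases of any kind then CCACG, was searched on both strands of the 300 bases around the gene start (250 before, 50 after) in the RefSeq promoter sequences of GRCm38.p6. It occurred in 39 of 32851 sequences (0.119%), in 12 of the 7822 expressed genes with a sequence (0.153%), in 3 of 419 raised genes and in 0 of 287 lowered genes. The 250 bases upstream of Hspa5, chr2:34771840-34772089 (plus strand), are shown with both parts of the match in capitals because Hspa5 had the highest 2 h value of the 12.
Hspa5: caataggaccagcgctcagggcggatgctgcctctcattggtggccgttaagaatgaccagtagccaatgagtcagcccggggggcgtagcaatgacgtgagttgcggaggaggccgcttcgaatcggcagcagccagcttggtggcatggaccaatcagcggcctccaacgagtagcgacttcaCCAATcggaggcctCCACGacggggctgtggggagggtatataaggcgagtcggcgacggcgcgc

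Among these 12 genes the median log2 change was 0.39 at 2 h, beside -0.15 for genes whose window held no match, and 1.27 at 7 h beside -0.01. At 2 h, 11 of the 12 were above the median of all expressed genes and 3 were past 2-fold, and at 7 h 7 were at least 2-fold higher, as were 7.01% of all expressed genes. The raised ones were Hspa5, Zfp57 (15.1 to 34.9 TPM), which encodes a zinc finger protein of imprinted loci, and Alg12 (10.4 to 23.2 TPM), which encodes a mannosyltransferase of N-glycan assembly. Syvn1, the ubiquitin ligase HRD1, was at 62.5 and 125 TPM, a log2 change that printed as 1.00 but fell just short of the call. Hsp90b1, Pdia6 and Calr, chaperones and an oxidoreductase of the ER, were at -0.00, -0.03 and -0.05. A match is a description of the letters in this window and not of a bound site.

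Genes of ER-associated degradation took 0.303% of the counts in the control and 0.412% at 2 h (log2 0.44; 0.41 to 0.48), with 2 of 28 expressed members raised and 2 lowered, 7.14% each beside 5.76% and 3.76% of all expressed genes, and a median of -0.19. Herpud1, an ER membrane protein of the degradation complex, was at 228 TPM in untreated cells, 900 at 2 h and 1518 at 7 h, a log2 change of 1.98 at 2 h (2.02 to 2.16). Selk, a selenoprotein of the ER membrane, was at 70.0, 254 and 164 TPM (1.86; 1.66 to 2.29). Edem3, a mannosidase acting on glycoproteins to be degraded, fell from 14.6 to 5.83 TPM (-1.32). Other arms of the secretory apparatus had no called member at 2 h, with 0 of 40 for translocation and N-glycosylation (median -0.29) and 0 of 43 for COPII, COPI and ER-Golgi transport (median -0.21). For both lists, as for chaperones, the summed change was higher at 7 h (log2 0.17 and 0.31) than at 2 h (-0.26 and -0.12). The calcium stores list had all 20 expressed genes below 0, beside 59.3% of 9902 expressed genes matched to GENCODE, and a median of -0.52. Atp2c1, a Golgi calcium pump, was its lowered member (15.8 to 6.95 TPM, -1.18), and Atp2a2, which encodes SERCA2, was at 172 and 116 TPM (-0.57).

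Amino acid genes, which ATF4 activates, had not passed 2-fold upward at 2 h in any member. Cytosolic aminoacyl-tRNA synthetases had 0 of 20 calls and a median of -0.02 at 2 h and 0.58 at 7 h. Enzymes of amino acid and one-carbon synthesis had 0 of 29 calls and medians of -0.09 and 0.50. Amino acid transporters had 2 of 18 lowered (11.1%, beside 3.76% of all expressed genes at 2 h) and none raised. At 7 h, 709 genes were raised and 815 lowered over all expressed genes (7.01% and 8.06%), measured against the same control library.

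Immediate-early genes, whose short-lived mRNAs answer signals without new protein synthesis, were higher at 2 h. All 40 listed genes together went from 0.413% of counts in the control to 0.875% at 2 h and 0.678% at 7 h (log2 1.08 at 2 h; 1.06 to 1.10). Of 36 expressed members 19 rose (52.8%, beside 5.76% of all expressed genes) and none fell, and 17 of the 32 at 4 TPM or more in the control rose. The rule on mean TPM let in 3 members that were under 2 TPM in the control, 2 of them raised. Egr1, a zinc finger factor that responds to growth signals, was at 5.39 TPM in untreated cells, 74.9 at 2 h and 23.4 at 7 h, a log2 change of 3.80 (3.60 to 4.24). Gadd45g, of the growth arrest family, was at 294, 2005 and 1128 TPM (2.77; 2.80 to 2.99). Ier3, an anti-apoptotic early response gene, was at 35.9, 218 and 107 TPM (2.6), and the clock gene Per1 at 4.39, 22.9 and 11.0 TPM (2.38). In these 4 genes the 2 h library was the highest of the 3. Myc, at 224, 484 and 852 TPM, was highest at 7 h. Jund (-0.65), Dusp4 (-0.53) and Zfp36l1 (-0.31) were below 0 at 2 h, and none of them passed 2-fold.

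Kruppel-like factors, a family of zinc finger transcription factors, summed to a log2 change of 1.47 (1.41 to 1.53). Of 11 expressed members 4 were raised (36.4%, beside 5.76% of all expressed genes) and none lowered. Klf10, known as an early TGF-β response gene, was at 52.9 TPM in untreated cells, 335 at 2 h and 221 at 7 h (2.66; 2.62 to 2.86). Klf6 was at 115, 404 and 300 TPM (1.81), and Klf7 and Klf2 also rose (1.80 and 1.30). Klf4 was at -0.53.

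ID proteins bind and block basic helix-loop-helix factors, and with the SMAD feedback genes listed beside them 5 of 15 expressed members rose and 1 fell. These shares, 33.3% and 6.67%, stood beside 5.76% and 3.76% of all expressed genes. One of the raised members was under 2 TPM in the control and entered by the rule on mean TPM. Of the 13 members at 4 TPM or more in the control, 4 rose. Id1 was at 136 TPM in untreated cells, 968 at 2 h and 155 at 7 h, a log2 change of 2.83 at 2 h (2.82 to 3.10) and 0.19 at 7 h. Id3 was at 505, 3108 and 1347 TPM (2.62; 2.66 to 2.83). Id2 was at 0.46 at 2 h. Among the SMAD feedback genes, Skil and Smad7, inhibitors of TGF-β signalling, rose (1.09 and 1.13), and Smurf2, a ubiquitin ligase of that pathway, fell (-1.13).

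Other short-lived regulators rose in 11 of 29 expressed members (37.9%, beside 5.76% of all expressed genes) and fell in 1, with a median of 0.61 at 2 h. Of the expressed members, 3 were under 2 TPM in the control and entered by the rule on mean TPM, 1 of them raised. Of the 24 at 4 TPM or more in the control, 10 rose. Feedback inhibitors of NF-κB were among the raised members. Tnfaip3, which encodes A20, was at 4.41 TPM in untreated cells, 24.9 at 2 h and 11.9 at 7 h (2.50; 2.25 to 2.90), and Nfkbia, which encodes IκBα, was at 85.7, 279 and 104 TPM (1.70; 1.68 to 1.96). Odc1, the rate-limiting enzyme of polyamine synthesis, was the lowered member (238 to 108 TPM, -1.14). Stress-linked secreted factors rose in 9 of 24 expressed members (37.5%, beside the same 5.76%) and fell in 1. The rule on mean TPM let in 4 that were under 2 TPM in the control, 1 of them raised, and of the 16 at 4 TPM or more in the control 7 rose. Hbegf, an EGF receptor ligand, was at 19.02, 70.1 and 40.6 TPM (1.88), Cxcl1, a chemokine, at 42.5, 133 and 62.3 TPM (1.64), and Ptgs2, the prostaglandin synthase COX-2, at 72.6, 187 and 279 TPM (1.37). Angptl2, a secreted angiopoietin-like protein, fell from 108 to 51.5 TPM (-1.07).

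Collagen chains lost share as a family. All 23 listed chains together went from 1.79% of counts in the control to 1.04% at 2 h and 0.809% at 7 h, a log2 change of -0.78 at 2 h (-0.80 to -0.76). Of 14 expressed chains 5 fell (35.7%, beside 3.76% of all expressed genes), none rose and the median was -0.75. Col1a1, a chain of type I collagen, was at 743 TPM in untreated cells, 309 at 2 h and 269 at 7 h, a log2 change of -1.27 with an interval of -1.19 to -1.10 from 41659 and 4349 counts. The other lowered chains were Col6a2 (-1.21), Col4a1 (-1.07), Col4a2 (-1.02) and Col6a1 (-1.01), and Col1a2 was at -0.89.

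Other secreted matrix proteins were also under the control. They summed to -0.48 (-0.49 to -0.46), with a median of -0.72 (-0.60 on the CPM scale). Of 47 expressed members 8 were lowered (17.0%, beside 3.76% of all expressed genes) and none raised. Adamts2 (-1.30), which trims procollagens, Fbn1 (-1.26), the microfibril protein fibrillin 1, Lamc1 (-1.13), a laminin chain, and Plod1 (-1.09), a lysyl hydroxylase of collagen, were lowered. Fn1, fibronectin, went from 358 to 199 TPM (-0.85) and Lox, lysyl oxidase, from 3262 to 1852 TPM (-0.82), so that neither passed 2-fold. Ctgf and Wisp1, related matricellular proteins, were on the other side at 0.89 and 0.93.

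Growth factor and surface receptors were lowered in 11 of 48 expressed members (22.9%, beside 3.76% of all expressed genes) and raised in none (median -0.68). Ptprf, a receptor phosphatase, went from 13.1 to 5.36 TPM (-1.29), Gpc1, a glypican, from 119 to 50.3 TPM (-1.24), and Lrp1, a large endocytic receptor, from 64.3 to 28.4 TPM (-1.18; -1.14 to -0.97). Lifr, Bmpr1a, Bmpr2, Met, Cdh2 and Tgfbr3 were also lowered. Cd44, at 0.29, had the highest value of the list. Lysosomal proteins, which also enter the ER, were lowered in 3 of 34 members (8.82%, beside 3.76% of all expressed genes) with a median of -0.57. The 3 were the hydrolases Man2b1 (-1.12), Sgsh (-1.08) and Gaa (-1.03).

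Single lowered genes included Man2a1, a Golgi mannosidase of N-glycan processing, at 113 TPM in untreated cells, 45.0 at 2 h and 42.4 at 7 h (-1.32; -1.41 to -1.12, from 4632 and 446 counts). Chpf2, an enzyme of chondroitin sulphate synthesis, was at 11.6, 2.74 and 6.44 TPM, a log2 change of -1.53 with 336 counts in the control and 20 at 2 h. Its 2 h value lay under the floor of 4 TPM, so the log2 change depends on the floor. Nptxr, the neuronal pentraxin receptor, was at 47.2, 16.1 and 20.8 TPM (-1.55), and 58.2% of the 28-base windows of its coding sequence also occur in another gene, so that part of its footprints cannot be assigned with certainty.

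**Figure D3:**
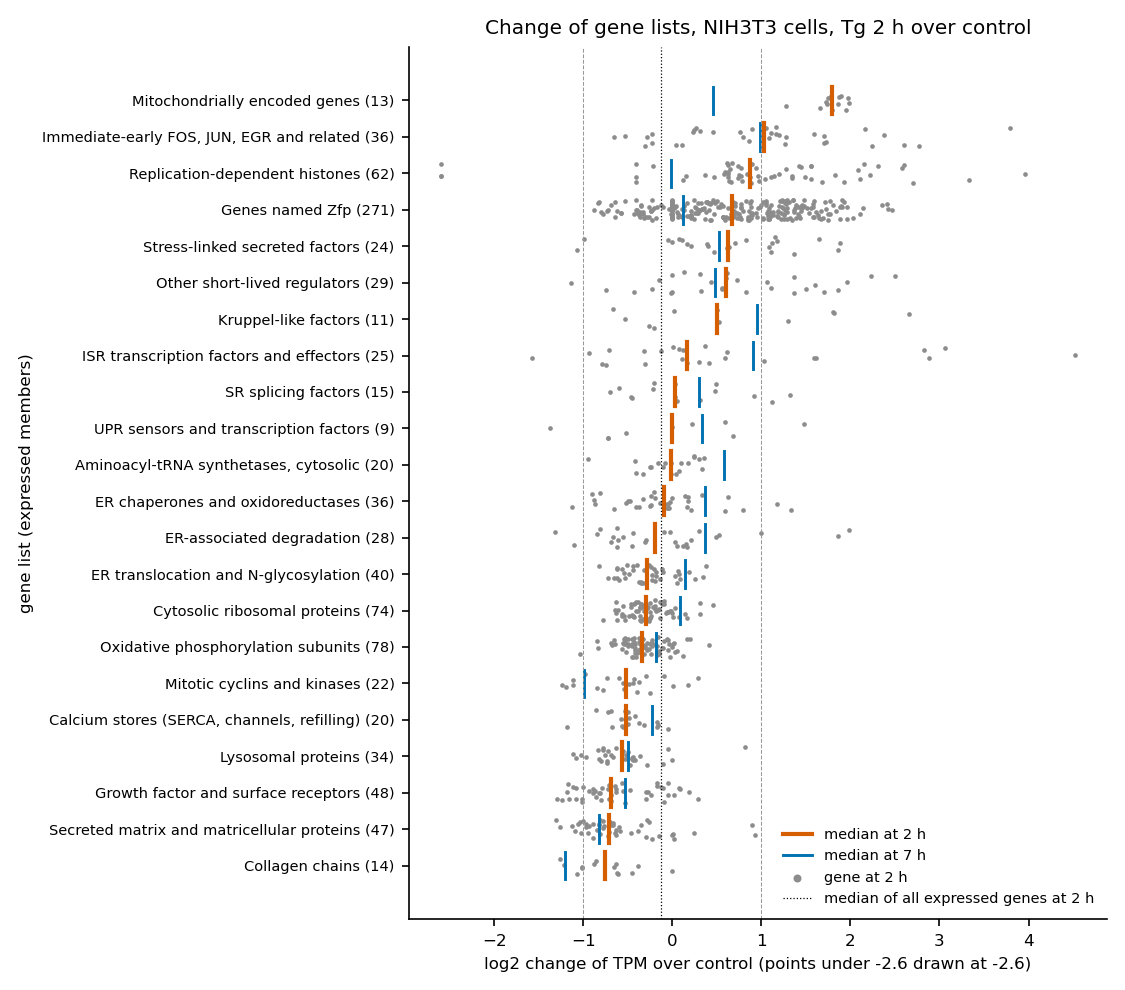
Log2 change of TPM at 2 h of Tg over control for the expressed members of 22 gene lists (1 grey point a gene), with the list median at 2 h (orange) and 7 h (blue), the median of all expressed genes at 2 h (dotted line) and 2-fold (dashed lines). Immediate-early genes, histones and mitochondrially encoded genes lie to the right at 2 h, and collagens, matrix proteins and receptors to the left, whereas chaperones and degradation genes have blue marks to the right of the orange ones.

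The N-terminal feature was computed for the 9902 expressed genes (97.9%) with a matching GENCODE symbol. A gene had a hydrophobic N terminus when any 8 residues among the first 30 averaged a hydropathy of at least 2.2, and a membrane window when 19 residues after position 30 averaged at least 1.6. These features measure hydropathy alone, so neither class is a list of proteins sent to the ER. Either feature was found in 51.7% of the lowered genes, 34.4% of all matched genes and 22.4% of the raised genes. The 1586 genes with a hydrophobic N terminus had a median of -0.28, and 115 (7.25%) were lowered and 70 (4.41%) raised. The 1818 genes with a membrane window alone had a median of -0.18, with 79 lowered and 51 raised. The 6498 genes with neither had a median of -0.09, with 181 (2.79%) lowered and 419 (6.45%) raised. The 734 genes with both features had a median of -0.35, with 63 (8.58%) lowered and 19 (2.59%) raised. The 852 genes with a hydrophobic N terminus and no membrane window had a median of -0.23. Of these, 52 (6.10%) were lowered and 51 (5.99%) raised, so lowered genes hardly outnumbered raised ones there.

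The difference between these classes was present in each of 5 classes of GC content with equal numbers of genes, and it varied with GC. Genes with a hydrophobic N terminus had medians of -0.13, -0.18, -0.28, -0.36 and -0.42 from the lowest to the highest GC class, and genes with neither feature had 0.00, -0.10, -0.14, -0.14 and -0.13. In the highest class 48 of 319 genes with a hydrophobic N terminus (15%) were lowered and 13 raised. Beside them, 62 of 1304 genes with neither feature (4.75%) and 133 of all 1981 genes of that class (6.71%) were lowered. In the lowest GC class, genes with a hydrophobic N terminus were raised more often than lowered (14 against 7). These shares, 5.79% and 2.89%, stood beside 8.43% and 1.92% of all genes of that class. Such genes were thus raised less often and lowered more often than all genes there. In the next class 14 were raised and 10 lowered (4.895% and 3.497%), beside 4.289% and 2.422% of all its genes. Both shares were higher than over all genes of that class. The part of GC content or of library preparation in these values was not tested.

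**Figure D4:**
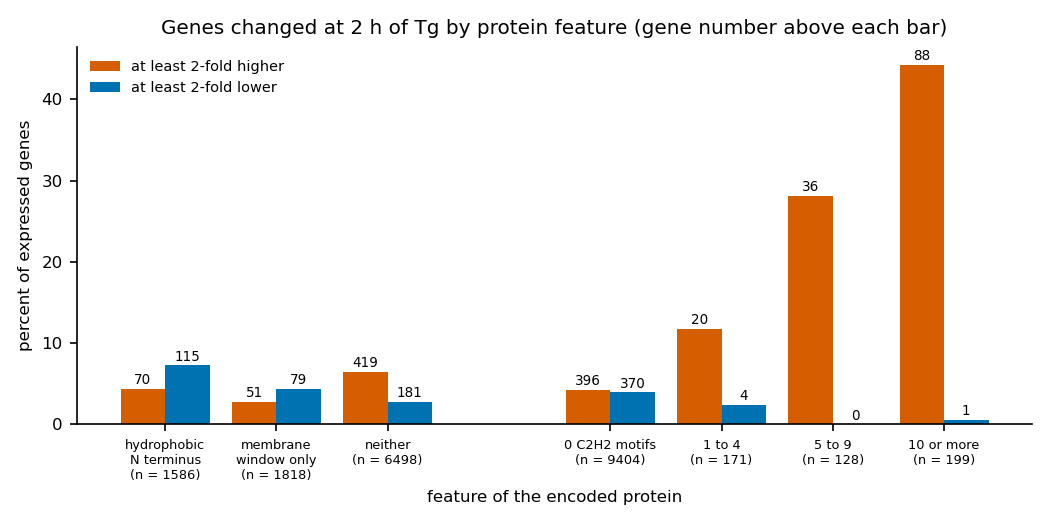
Percent of genes at least 2-fold higher (orange) or lower (blue) at 2 h of Tg, by N-terminal and membrane features (left) and by the number of C2H2 zinc finger motifs in the encoded protein (right), with the number of genes above each bar. Lowered genes outnumber raised genes where the protein has a hydrophobic N terminus or a membrane window, and the raised share climbs from 4.21% with 0 motifs to 44.2% with 10 or more.

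Of the raised genes 100 are named Zfp. Most genes of this name encode C2H2 zinc finger proteins, DNA-binding proteins with tandem fingers, each holding a zinc ion between a pair of cysteines and a pair of histidines. The list was taken by symbol, and 221 of the 269 expressed and matched members encode at least 5 C2H2 motifs; a few, such as Zfp36, are of another finger type. All 371 listed genes together went from 0.491% of counts in the control to 0.834% at 2 h and 0.647% at 7 h, a log2 change of 0.76 (0.74 to 0.79). Of 271 expressed members 100 rose (36.9%, beside 5.76% of all expressed genes) and none fell at 2 h, with a median of 0.66. The rule on mean TPM let in 40 members that were under 2 TPM in the control, 11 of them raised. Of the 159 at 4 TPM or more in the control 55 rose, with a median of 0.64. One finger of each of a pair of raised genes is shown, with the codons of the zinc-binding cysteines and histidines in capitals, at chr7:43590016-43590078 (plus strand) for Zfp719 and chr7:43299401-43299463 (minus) for Zfp715 (GRCm38).
Zfp719: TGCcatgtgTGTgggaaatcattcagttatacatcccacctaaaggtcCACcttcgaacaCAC
Zfp715: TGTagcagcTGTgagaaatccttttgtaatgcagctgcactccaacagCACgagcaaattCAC

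Zfp719, with 13 such fingers, was at 5.91 TPM in untreated cells, 31.5 at 2 h and 10.3 at 7 h (2.41; 2.24 to 2.84, from 164 and 220 counts). Zfp715, with 18, was at 7.29, 27.8 and 17.6 TPM (1.93; 1.78 to 2.31). Both were highest at 2 h.

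The share of raised genes was higher with more motifs. Genes with 0 motifs were raised in 396 of 9404 cases (4.21%), those with 5 to 9 in 36 of 128 (28.1%) and those with 10 or more in 88 of 199 (44.2%). Many of these genes were weakly expressed, with a median of 3.69 TPM in the control for those with 10 or more motifs. With at least 4 TPM in the control, 329 of 8518 (3.86%), 26 of 91 (28.6%) and 41 of 93 (44.1%) were raised. Among 106 genes with at least 5 motifs and another name, 33 were raised. The medians of genes with at least 5 motifs fell with GC content, from 1.05 in the lowest GC class to 0.68, 0.27, 0.26 and 0.09 in the others. They also moved with sequence shared between genes. Where under 1% of the 28-base coding windows of a Zfp gene occur in another gene, 28 of 140 genes rose (20%, median 0.28). Where 1% to 10% do, 29 of 53 rose (median 1.08), and where 10% to 50% do, 25 of 45 rose (median 1.17). Where at least 50% do, 17 of 31 rose (median 1.07). With at least 4 TPM in the control the same classes, in this order, had 18 of 105, 13 of 22, 15 of 19 and 9 of 13 raised. Footprints of 22 to 34 bases from such windows may be assigned to more than 1 gene, and the part of this in the result was not tested.

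Replication-dependent histone genes, whose mRNAs end in a stem-loop in place of a poly(A) tail, took 3.15% of counts in untreated cells, 7.35% at 2 h and 3.58% at 7 h. Over the 67 listed genes the log2 change was 1.22 (1.22 to 1.23) at 2 h and 0.19 at 7 h. By class it was 1.56 for the linker histone H1, 0.98 for H2A, 1.75 for H2B, 0.67 for H3 and 1.17 for H4, so that all 5 classes gained share and H2B gained most. Of 62 expressed genes 26 rose and 3 fell (41.9% and 4.84%, beside 5.76% and 3.76% of all expressed genes). Hist1h1a was at 37.0 TPM in untreated cells, 574 at 2 h and 418 at 7 h (3.96; 3.88 to 4.27), and Hist3h2a at 48.6, 490 and 462 TPM (3.34; 3.21 to 3.71).

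The 3 lowered histone genes were Hist1h2ag, Hist1h2ao and Hist1h2ap, each with 711 counts in the control and 0 at 2 h. At the depth of the 2 h library, 0 counts allow a level of up to 1.17 CPM. All their 28-base windows occur in other genes, and near-identical H2A genes share footprints, so values of single histone genes are uncertain, whereas a class sum does not depend on how footprints are split within the class. With genes of at least 50% shared windows left out, chosen after seeing the data, the median of the histone list was 1.45 in place of 0.88.

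Other pairs of near copies took part in the extreme values. Amd1 went from 638 to 58 counts and its copy Amd2 from 0 to 57, and the sum of both had a log2 change of -0.36 (-0.66 to -0.07), short of 2-fold. Gm15107 went from 0 to 226 counts and Gm15114 from 305 to 0, with a summed change of 1.68. The sum of Eif3j1 and Eif3j2, a translation initiation subunit and its copy, was at 0.09 (-0.09 to 0.26). In all, 65 of the raised and 16 of the lowered genes had at least 50% of their windows in another gene, among 355 such expressed genes. Over all expressed genes 5.76% were raised and 3.76% lowered.

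The 13 protein genes of the mitochondrial genome, which are translated by mitochondrial ribosomes, were all raised. This list was added after the values were seen. Their summed share was 0.511% of counts in untreated cells, 1.93% at 2 h and 0.722% at 7 h, from 56866, 49726 and 41538 counts, a log2 change of 1.92 at 2 h (1.90 to 1.94). The median was 1.80, and single genes ran from 1.27 (ND3) to 1.99 (ATP8). ATP8, a subunit of ATP synthase, had 1010 counts in the control and 1007 at 2 h, although the 2 h library was 4.33 times smaller, and was at 676, 2678 and 886 TPM. Nuclear genes of the same complexes did not share this. The 78 expressed oxidative phosphorylation subunits had a median of -0.34, with 1 lowered (1.28%) and none raised. Mitochondrial ribosomal proteins had a median of -0.23, with 1 of 77 raised (1.30%) and none lowered. Beside these, 5.76% of all expressed genes were raised and 3.76% lowered.

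Cytosolic ribosomal proteins, a large and usually coordinated class, took 6.63% of counts in untreated cells, 5.99% at 2 h and 7.40% at 7 h (log2 -0.15; -0.15 to -0.14), with none of 74 called. Among translation factors, Eif4a2, an isoform of the initiation helicase, rose from 178 to 578 TPM and was at 254 TPM at 7 h (1.70; 1.73 to 1.90), and Eif4ebp2, a cap-binding inhibitor, fell from 43.9 to 16.7 TPM on 15 counts (-1.40). Mitotic cyclins and kinases had 4 of 22 lowered (18.2%, beside 3.76% of all expressed genes) and none raised. Their medians were -0.52 at 2 h and -0.99 at 7 h, with Ccna2, cyclin A2, at 220, 102 and 75.4 TPM (-1.11). Ccng1, a p53-induced cyclin, was at 470, 199 and 208 TPM (-1.24). Sterol and fatty acid enzymes had 2 of 36 lowered (5.56%), a share near the 3.76% of all expressed genes. Hmgcs1, an early enzyme of the mevalonate pathway, was the highest of the list at 191, 376 and 106 TPM, just short of 2-fold at 2 h (0.98) and at -0.86 at 7 h.

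**Figure D5:**
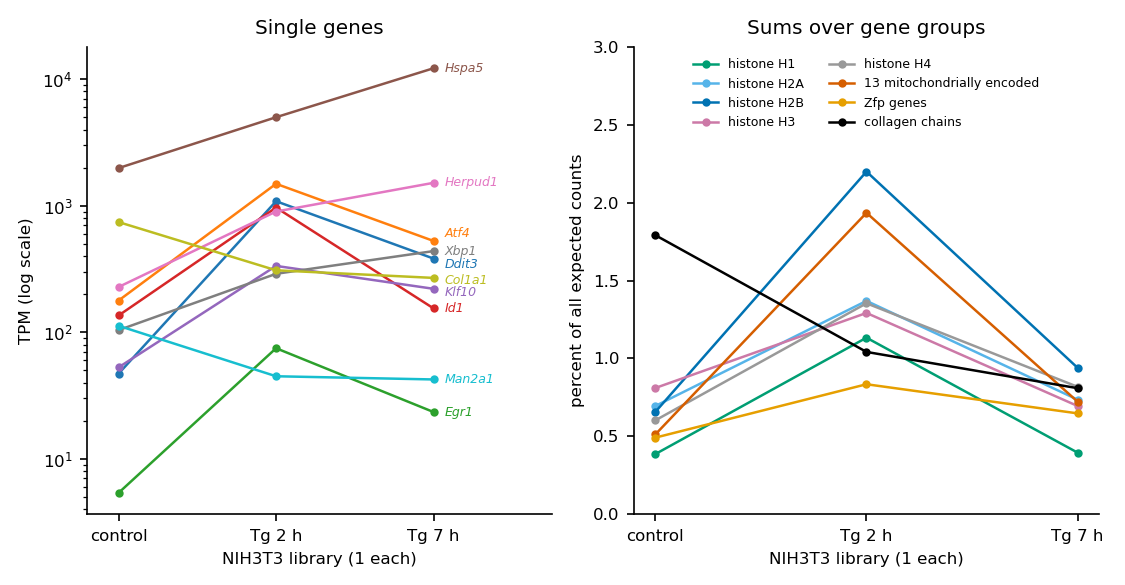
Left, TPM of single genes on a log scale in the NIH3T3 control, Tg 2 h and Tg 7 h libraries (1 each). Right, percent of all expected counts taken by histone classes, mitochondrially encoded genes, Zfp genes and collagen chains in the same libraries; Id1, the histone classes and the mitochondrial genes stand highest at 2 h, and Hspa5, Herpud1 and Xbp1 at 7 h.

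Genes with many upstream start codons were raised somewhat more often. Among genes with at least 7 ATG triplets in the annotated leader 31 of 280 were raised (11.1%), against 271 of 5170 (5.24%) with none. With genes of at least 5 zinc finger motifs and those with a hydrophobic N terminus or membrane window set aside, the shares were 13 of 149 (8.72%) and 161 of 3367 (4.78%). Genes with 1 to 6 such triplets lay at 4.55% to 4.66% in this smaller set, so the classes did not form an even order. Genes with at least 7 triplets were also more weakly expressed, with a median control level of 8.54 TPM against 29.38 with none. In the smaller set these medians were 9.62 and 33.75 TPM. The shares were not taken again at 4 TPM or more in the control, and the part of expression level in them was not tested.

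Of the 583 genes raised at 2 h, 227 were also at least 2-fold above the control at 7 h and 4 were at least 2-fold below it, with a 7 h median of 0.69. Of the 380 lowered genes, 212 were at least 2-fold below at 7 h and 1 above, with a 7 h median of -1.06. Over all expressed genes 7.01% were raised and 8.06% lowered at 7 h. The control library is shared by both changes, so these counts describe values side by side and nothing is read from them.

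The MEFs at 2 h of Tg share no library with these values, but the dose and the culture medium differed. In PERK WT MEFs 5.66% of 10432 expressed genes were raised and 4.01% lowered at 2 h, and in PERK -/- MEFs 0.623% were raised and 5.78% lowered. Over 9367 genes expressed in both cell types, the rank correlation (Spearman's rho) of the NIH3T3 change with that in PERK WT MEFs was 0.35, and with that in PERK -/- MEFs 0.15; this describes genes, which are not replicates. Of 476 genes raised in NIH3T3 cells and 543 in PERK WT MEFs, 123 were common, which is 25.8% and 22.7% of each list. With PERK -/- MEFs 15 were common, 3.15% of the NIH3T3 list and 27.3% of the 55 genes raised there. Of 371 lowered genes 67 (18.1%) were also lowered in PERK WT MEFs and 57 (15.4%) in PERK -/- MEFs. The NIH3T3 raised genes had medians of 0.47 in PERK WT and 0.00 in PERK -/- MEFs, and the NIH3T3 lowered genes had -0.42 and -0.43, beside medians over all genes of 0.00 in PERK WT and -0.11 in PERK -/- MEFs.

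Several single genes had unlike values in the MEFs. Ddit3 and Atf4 had log2 changes of 5.00 and 4.0 in PERK WT MEFs and 1.04 and -0.28 in PERK -/- MEFs, beside 4.53 and 3.06 in NIH3T3 cells. Chac1 and Trib3 were at 4.45 and 4.67 in PERK WT MEFs, beside 1.59 and 1.03. Sesn2, Ddit4 and Cebpb, none of them called in NIH3T3 cells at 2 h, were at 3.19, 2.28 and 1.94 in PERK WT MEFs. Klf4 was at 2.10 there and -0.53 here. In the other direction, Egr1 was at 0.40 in PERK WT MEFs beside 3.80, Tnfaip3 at 0.58 beside 2.50 and Zfp719 at 0.28 beside 2.41. The 371 Zfp genes summed to 0.32 in PERK WT MEFs and 0.05 in PERK -/- MEFs beside 0.76, and the mitochondrially encoded genes to 0.64 and 0.30 beside 1.92. Histones summed to 1.22 in NIH3T3 cells, 1.27 in PERK WT MEFs and -0.14 in PERK -/- MEFs. Collagen chains were at -0.78 in NIH3T3 cells, -0.42 in PERK WT and -1.39 in PERK -/- MEFs. Per the study's methods, the medium of the MEFs also held added non-essential amino acids and beta-mercaptoethanol, which are not listed for NIH3T3 cells. The dose, the cell line, the medium and the depth differ between these experiments and cannot be told apart, and the differences were not tested.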

How the data were processed

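Expression was analysed in NIH3T3 cells, untreated and after 2 h of Tg, with the 7 h library and 2 h MEF libraries set beside them. Per the study's methods, the authors trimmed footprints to 22 to 34 bases, removed rRNA and tRNA with STAR, mapped to mm10 RefSeq coding sequences with Bowtie2 after clipping 30 nucleotides from each end, and quantified with RSEM; versions are not given in the sources used here. The deposited expected counts, whole numbers in the files, and the deposited TPM values were used as given, with the study's floor of 4 TPM and 2-fold call, and its minimum mean of 2 TPM taken over the 3 NIH3T3 libraries, and over the MEF libraries for the MEFs. With 1 library per condition, each count ratio was given an exact conditional (Clopper-Pearson) 95% interval, and no test was made. Depth ran from 2525029 to 14799515 expected counts over the libraries used.

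Genes were named by a rule: the 15 with the highest lower bound and the 15 with the lowest upper bound of the interval, all ISR and UPR regulators, up to 4 members a list with the largest change and at least 100 control counts, and 13 genes named by the study or earlier results. Other list members and genes outside the lists were named after their values were seen. Some items that the rule names are not reported here. Members and lists were chosen with earlier results of these data known. Sequence features came from GENCODE M21 (GRCm38), 1 transcript a gene, and promoters from RefSeq (GRCm38.p6). Python 3.11.15, pandas 2.3.3, scipy 1.17.1, R 4.3.3 and, for normalization factors alone, edgeR 4.0.16 and DESeq2 1.42.0 were used. Scripts were tested on simulated data. Alternatives covered the floor, pseudocount, filter, fold threshold, scaling, thinning, GC trend and shared sequence.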

Additional observations from a re-analysis of the deposited data

Results flagged for a closer look

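A few genes were called in opposite directions at 2 h in NIH3T3 cells and in PERK WT MEFs. Gm4184 had a log2 change of 4.82 in NIH3T3 cells, from 0 to 44 counts with the control raised to the floor of 4 TPM, and -3.10 in PERK WT MEFs. LOC102637269 held the same 44 counts and 112.96 TPM at 2 h but 32 counts in the control (log2 2.45), and also -3.10 in PERK WT MEFs, so counts of the pair may be split between symbols. The H2A genes Hist1h2ag, Hist1h2ao and Hist1h2ap had -5.48 in NIH3T3 cells, with 0 counts at 2 h, and 3.34 in PERK WT MEFs. Gm5601 had -2.67, also with 0 counts at 2 h, and 1.92. These fitted values against 0 depend on the floor. In each case the difference between the cell types was not tested. All 28-base windows of the 3 H2A genes occur in other genes. Over the genes expressed in both cell types, 7 were raised in NIH3T3 cells and lowered in PERK WT MEFs, and 11 the reverse.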

How the results depend on the processing

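No paired analysis was possible because each condition is 1 library, and no replicate could be left out. Raised and lowered genes numbered 1210 and 1840 at 1.5-fold and 191 and 26 at 3-fold. Centring on the median, chosen after seeing the data, left 215 lowered. The median log2 change of all expressed genes was -0.18 with a floor of 1 TPM, -0.17 with a pseudocount of 1, -0.19 at a mean of at least 5 TPM, -0.0942 with DESeq2 size factors, -0.0436 with CPM, -0.0378 with the control thinned, -0.16 with the GC trend removed and 0 without a filter. In that order, genes with a hydrophobic N terminus were at -0.35 (floor), -0.36 (mean), -0.19 (CPM), -0.18 (thinned) and -0.35 (hydropathy of at least 2.6). Here and in the values that follow, settings labelled the same as the main one were left out, by labels described further on. Genes with a membrane window alone were at -0.24, -0.22 (pseudocount), -0.24, -0.14 (DESeq2), -0.11 and -0.10. Genes with neither were at -0.13, -0.12 (pseudocount), -0.14, -0.0563 (DESeq2), -0.0020 (CPM), -0.00036 (thinned) and -0.13 (GC). ER chaperones turned to 0.0217 with CPM and 0.0415 thinned, and matrix proteins were at -0.60 and -0.61. Zfp genes were at 0.97 (floor), 0.88 (mean), 0.91 (CPM and thinned) and 0.31 (no filter), and histones at 1.45 without genes of shared windows. The cause was not tested. Of 383 list medians under alternatives, 362 were labelled the same, 19 were labelled moved and 2 changed sign. These labels followed no fixed size of shift, so the same does not mean a small change. The ISR list, at 0.16 and 0.30 (floor), and the receptors, at -0.68 and -0.54 (CPM), were labelled the same. The median of all expressed genes, at -0.13 and -0.18 (floor), was labelled moved. Of 104 named genes past 2-fold, 89 kept it with CPM, 99 with DESeq2 factors and 103 with TMM factors. Depth limits lowered genes most, with a median of 45 counts at 2 h, and 617 expressed genes lay under the floor in both libraries.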

Other observations

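Genes outside the lists were looked at among those with at least 100 counts in the control, and were chosen after their values were seen. Txnip, which binds thioredoxin and limits glucose uptake, was at 95.9 TPM in untreated cells, 680 at 2 h and 426 at 7 h (log2 2.83 at 2 h; 2.85 to 3.04). Ifrd1, a transcriptional co-regulator with a known upstream reading frame, was at 47.7, 383 and 304 TPM (3.00; 3.00 to 3.25). Rcan1, an inhibitor of calcineurin that calcium signals induce, was at 31.9, 136 and 117 TPM (2.09; 1.82 to 2.36), and its change at 2 h was 2.89 in PERK WT and 2.44 in PERK -/- MEFs. Azin1, which raises polyamine synthesis by binding antizyme, was at 21.1, 78.0 and 48.8 TPM (1.88), while Odc1 and Oaz1, the enzyme and the antizyme, were at -1.14 and -0.75.

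Cflar, an inhibitor of caspase-8 activation, was at 14.01, 79.8 and 23.4 TPM (2.51; 2.21 to 2.89), and was at 0.15 in PERK WT MEFs. Nr1d1, the clock repressor REV-ERBα, was at 10.6, 39.3 and 34.1 TPM (1.89). Innate immune signalling genes Tlr4 and Ticam1, a receptor and an adaptor of one pathway, were at 13.2 and 9.36 TPM in the control and 43.9 and 35.6 TPM at 2 h (1.74 and 1.93). Rad51c, a recombination factor, was at 200, 746 and 359 TPM (1.90; 1.95 to 2.10). On the lowered side, Gas1, a membrane-anchored growth arrest protein, was at 34.5, 10.8 and 10.2 TPM (-1.67; -2.07 to -1.07) and at 0.94 in PERK WT MEFs. Ppm1a, a phosphatase, was at 44.3, 14.04 and 17.7 TPM (-1.66), and Bcl7c, a chromatin remodelling subunit, at 41.5, 10.2 and 25.6 TPM on 313 and 19 counts (-2.02).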
